A study of Mus musculus with 6 samples.

Results

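The mitochondrial genome is copied and transcribed by proteins that are encoded in the nucleus. Their mRNA levels were followed here for 10 genes, Tfam, Polrmt, Polg, Polg2, Twnk, Tfb1m, Tfb2m, Tefm, Lrpprc and Slirp, which were chosen by name from the 54532 genes listed. RNA was sequenced from N2a (Neuro2A) cells, a mouse neuroblastoma line, in 3 libraries after transfection with the control siRNA si-NC and in 3 libraries after transfection with si-circRtn4, an siRNA against the circular RNA of the Rtn4 gene. All 6 libraries come from this one line, for which the labels give the strain C57BL/6, and every culture received an siRNA. The text of the study names that strain for the embryos of its primary neurons and gives no strain for N2a cells. The labels name the growth medium only, whereas the general methods of the study add a differentiation medium with retinoic acid, so the state of differentiation of these cells is not known. No source says whether the 3 libraries of a group came from separate cultures, so the p-values below measure only the spread between these libraries.

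Values are FPKM, a count of fragments divided by gene length and library depth. Each library held 13541198 to 15122063 reads on the listed genes. Of 9 sympathetic neuroblastoma markers, 8 had a mean of at least 1 FPKM, with summed levels of 1261 to 1341 FPKM in the si-NC libraries and 782 to 1075 FPKM in si-circRtn4. None of 6 fibroblast markers (summed levels of 0.301 to 0.503 FPKM in si-NC and 0.509 to 0.786 FPKM in si-circRtn4) and none of 5 leukocyte markers (0.843 to 2.09 and 0.906 to 1.15 FPKM, with Cd3e at 0 throughout) reached that mean. Of 6 glial markers only Mbp did. The summed levels of all 6 were 4.95 to 5.77 FPKM in si-NC and 3.67 to 5.45 FPKM in si-circRtn4, with Aqp4 at 0 throughout. The part of this difference in the neuroblastoma markers in the values below was not tested. In bulk RNA, fewer cells of a kind and less RNA per cell cannot be told apart.

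Mitochondrial DNA is a small circle that is transcribed from both strands into long precursors. The polymerase POLRMT starts them together with TFAM, which also packs the DNA, and TFB2M, which opens the promoter, and TEFM keeps it elongating. TFB1M methylates the small ribosomal RNA of the organelle, and LRPPRC and SLIRP form a complex that stabilises mitochondrial mRNA. The DNA is copied by polymerase gamma, whose catalytic subunit is POLG and whose accessory subunit is POLG2, behind the helicase Twinkle, the product of Twnk. Many nuclear genes of this kind are known targets of the transcription factors NRF-1 and GABP (also called NRF-2), which has an ETS domain.

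Most of the promoters of these genes hold a short sequence that played no part in their choice by name. RefSeq promoters on GRCm38.p6, of 250 bases before and 50 bases after the start, were found for all 10 genes. The ETS core CCGGAAG, searched for on both strands, was present in the promoters of 7 of the 10 genes, with 10 matches in all. It was present in 8.86% of the 32851 promoters of that table and in 18.5% of the 11335 promoters of genes tested here. These shares count promoters, whereas the 7 of 10 counts genes. Twnk has 2 promoters in that table, and promoter 1 holds no ETS match. The NRF-1 core GCATGCGC was found in 2 genes, Polrmt and Tfb2m, against 5.55% of the promoters of genes tested. A YY1 motif (ATGGCGGC) was found in Slirp alone, against 5.03%. No 2 matches in these genes overlapped, and a match is a description of the sequence and not a site shown to be bound. The windows below, 5′ to 3′ on the strand of the gene, show 1 ETS match for each of these 7 genes and both NRF-1 matches in capitals, with up to 10 bases on each side.
Tfam, ETS (chr10:71238075-71238101, minus strand): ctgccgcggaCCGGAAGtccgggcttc
Polrmt, ETS (chr10:79746608-79746634, minus strand): cctaagagcgCTTCCGGcagtcgcaga
Polg, ETS (chr7:79466295-79466321, minus strand): aggacctcacCCGGAAGtccctctgca
Polg2, ETS (chr11:106779550-106779576, minus strand): gggtgacgctCTTCCGGgggcgtggtc
Twnk, ETS (chr19:45006482-45006508, plus strand): gagagttttgCTTCCGGagtcaccgcg
Tefm, ETS (chr11:80142146-80142172, minus strand): gcacacgaaaCCGGAAGttgaggagga
Slirp, ETS (chr12:87443838-87443864, plus strand): acagtttggcCCGGAAGcagaactcga
Polrmt, NRF-1 (chr10:79746697-79746724, minus strand): gagtatttctGCGCATGCtctcttgccg
Tfb2m, NRF-1 (chr1:179546246-179546273, minus strand): taggtcgttcGCATGCGCcattcgtaat
Counted from the annotated start, the 7 ETS matches shown begin between positions -66 (Twnk) and -9 (Tefm). The ETS matches not shown begin at -110 in Twnk and at -146 and -11 in Slirp, so the range over all 10 is wider. The NRF-1 match begins at position -133 in Polrmt and 13 in Tfb2m. Tfb1m and Lrpprc held none of the 3 motifs in this window.

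The siRNA and miR-24-3p, the miRNA that the study pairs with circRtn4, can act on other mRNAs through bases 2 to 8, shown in capitals. The guide strand is taken here to be the reverse complement of the siRNA strand listed in the study, and the miRNA is from RefSeq.
Guide of si-circRtn4: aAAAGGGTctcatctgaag
mmu-miR-24-3p: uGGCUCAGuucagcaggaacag
Within the longest 3′ UTR that GENCODE M21 annotates for each gene, 9 of the 10 genes held no site for either seed. Polg held 2 sites for the seed of the guide (ACCCTTT) in a 3′ UTR of 3730 bases and no site for miR-24-3p (CTGAGCC). Among 10692 genes tested that have such a UTR, 13.1% held a guide site and 21.6% a miR-24-3p site. The 2 sites of Polg, on the minus strand in GRCm38, are shown with the seed match in capitals.
Polg, site 1 (chr7:79449027-79449033): tacttggaggACCCTTTgcttttacca
Polg, site 2 (chr7:79446240-79446246): agccaaataaACCCTTTtctcttcaa
The coordinates cover the 7 bases in capitals, and neither match is followed by A.

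The question was whether the mRNAs of these factors change when circRtn4 is targeted. In these data no change of a single factor passed the test, except that of Tfb2m when replicate number was a block in the fit (below). Log2(FPKM + 1) values were compared with limma across the 12749 genes that averaged 1 FPKM or more, and a gene was called at an adjusted p under 0.05 (Benjamini-Hochberg over all genes tested). Of the 10 factors, 9 were tested and 0 were called in either direction. Of all genes tested 9.19% were called (4.36% higher and 4.82% lower), and 0 of only 9 genes does not set the factors apart from that share. Of all calls 47.5% were higher, and 71.0% were after scaling to equal FPKM sums. That share was 52.3% when those sums left out the top gene, Gm23935. At an unadjusted p under 0.05 in limma 1 factor was lower (Tfb2m) and 0 were higher, where 12.8% of all genes tested were lower and 13.1% higher. After scaling to equal FPKM sums 2 factors were higher and 0 lower at that threshold, where 20.6% of all genes were higher and 7.55% lower. Limma-voom on the recovered reads also called 0 at an adjusted p under 0.05. The si-circRtn4 means of the 9 genes lay between 83.3% and 114% of the si-NC means, and their median log2 fold change was -0.07, where that of all genes tested was 0.0020. After scaling all libraries to equal FPKM sums, these medians were 0.02 and 0.082.

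**Figure D1:**
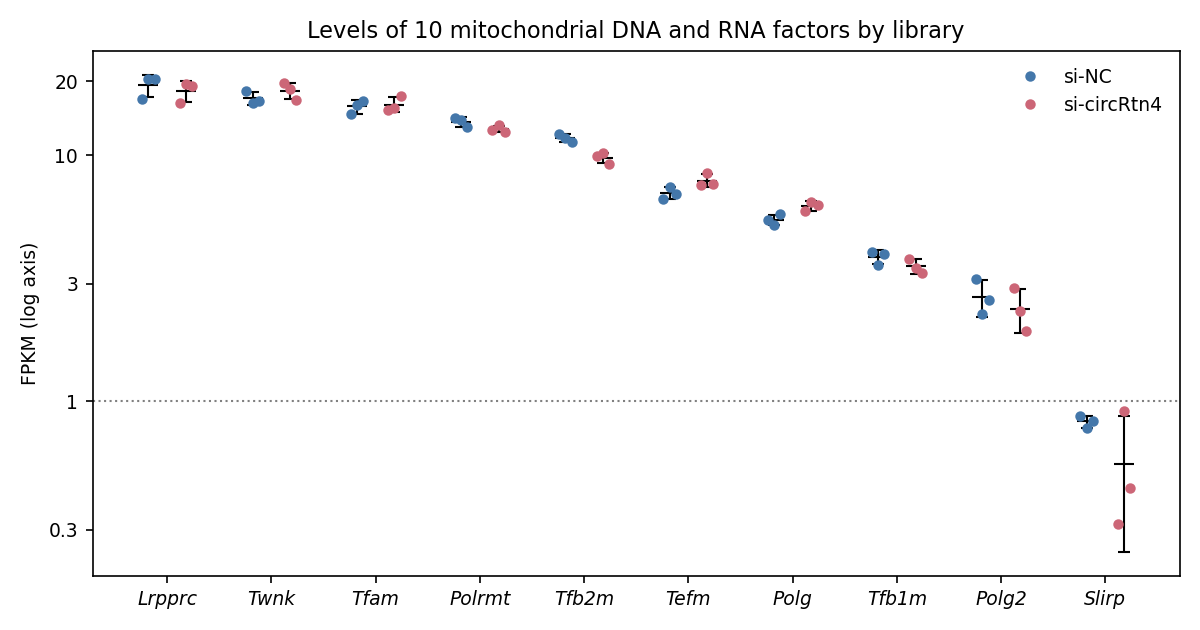
FPKM of the 10 factors in each library, on a log axis, ordered by their si-NC mean. Points are the 3 si-NC and the 3 si-circRtn4 libraries, bars are the mean ± SD, and the dotted line marks 1 FPKM, the minimum mean for testing. The levels run from about 20.5 FPKM for Lrpprc down to Slirp, which lies below the line, and the groups stand apart only for Tfb2m, Tefm and Polg.

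The levels of these mRNAs were compared per length, as FPKM, in the si-NC libraries. Lrpprc was the highest at 19.3 ± 2.02 FPKM (SD, n = 3), above 74.7% of the genes tested over all 6 libraries. Twnk at 17.1 ± 1.05 and Tfam at 15.8 ± 1.03 FPKM followed, and the ranges of Lrpprc and Twnk, and of Twnk and Tfam, overlapped. Below them the ranges of neighbours no longer overlapped, through Polrmt, Tfb2m, Tefm, Polg, Tfb1m and Polg2 down to Slirp. The same neighbours overlapped in the si-circRtn4 libraries, where the order of the means changed at the top only, Twnk and Lrpprc lying at 18.4 and 18.3 FPKM. Between 122 and 2592 reads per library stood behind the 9 genes tested. The order rests on the listed gene length, 10742 bases for Polg and 1570 for Tefm. For both it equals the joined exons of all annotated transcripts, 18 for Polg and 3 for Tefm. Polg had 808 to 1086 reads per library and Tefm 153 to 207.

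Among the genes that start transcription, Tfb2m, the promoter-opening factor (chromosome 1, 179528055 to 179546267, minus strand), had the lowest adjusted p of the 9. It was at 12.2, 11.7 and 11.3 FPKM in si-NC against 9.93, 10.2 and 9.25 FPKM in si-circRtn4. All si-circRtn4 libraries thus lay below all si-NC libraries. The log2 fold change was -0.24 (standard error, SE, 0.072, 95% interval -0.41 to -0.073) with an adjusted p of 0.0809 from limma, and the two-sided exact permutation test gave p = 0.1, the smallest value that 3 libraries against 3 allow. With replicate number as a block in the fit it was called lower at an adjusted p of 0.0393, in a fit that called 9.29% of all genes tested higher and 9.75% lower. Over all 14 alternatives the adjusted p lay between 0.0393 and 0.238. Tfb2m shares 31.9% of its windows of 50 bases with Gm1818, a pseudogene on chromosome 12, so reads from those windows could be assigned to either. Gm1818 was listed at 3.47, 3.75 and 3.80 FPKM in si-NC against 3.44, 3.09 and 3.20 FPKM in si-circRtn4, with a log2 fold change of -0.14 (adjusted p = 0.362 in limma). The part of the shared reads in the difference of Tfb2m was not tested.

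Tfam, which packs the DNA and starts transcription (chromosome 10, 71225464 to 71238280), was at 14.7, 16.1 and 16.7 FPKM in si-NC against 15.3, 15.6 and 17.4 FPKM in si-circRtn4. The groups overlapped throughout. The log2 fold change was 0.022 (SE 0.083, adjusted p = 0.902 in limma), and its 95% interval ran from a fold of 0.889 to 1.16 on the scale of FPKM + 1. Its sign changed without si-NC replicate 1 (-0.027) or si-circRtn4 replicate 3 (-0.031). Polrmt, the RNA polymerase of the organelle (chromosome 10, 79736123 to 79746581), was at 14.2, 13.9 and 13.0 FPKM against 12.7, 13.2 and 12.5 FPKM. The si-circRtn4 values were among the lower ones but overlapped with si-NC replicate 3, with a log2 fold change of -0.089 (SE 0.070, adjusted p = 0.477).

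Tefm, the elongation factor (chromosome 11, 80136678 to 80142175), was at 6.67, 7.47 and 6.96 FPKM in si-NC against 7.61, 8.47 and 7.62 FPKM in si-circRtn4. The si-circRtn4 libraries lay above all si-NC libraries, by as little as 7.61 against 7.47 FPKM at the nearest. The log2 fold change was 0.15 (SE 0.079, 95% interval -0.036 to 0.33) and was not called (adjusted p = 0.290, and 0.116 to 0.548 over the alternatives). Tfb1m, the rRNA methyltransferase (chromosome 17, 3519256 to 3557781), was at 4.04, 3.57 and 3.96 FPKM against 3.80, 3.49 and 3.34 FPKM, with overlapping groups and a log2 fold change of -0.097 (SE 0.089, adjusted p = 0.546).

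Of the genes that copy the DNA, Polg, the catalytic subunit (chromosome 7, 79446231 to 79466362), was at 5.46, 5.22 and 5.75 FPKM in si-NC against 5.94, 6.50 and 6.27 FPKM in si-circRtn4. All si-circRtn4 libraries lay above all si-NC libraries, and this is the gene with the 2 guide seed sites shown above. The log2 fold change was 0.16 (SE 0.076, 95% interval -0.018 to 0.34) with an adjusted p of 0.238, and 0.0933 to 0.507 over the alternatives. Polg2, the accessory subunit (chromosome 11, 106768253 to 106779537), had the largest SE of the 9 and was at 3.15, 2.26 and 2.58 FPKM against 2.89, 2.33 and 1.93 FPKM. Its log2 fold change was -0.12 (SE 0.14, adjusted p = 0.667). On the scale of FPKM + 1, which understates the change of a gene this low, the 95% interval ran from a fold of 0.730 to 1.16. Twnk, the helicase (chromosome 19, 45006558 to 45012762), was at 18.3, 16.4 and 16.6 FPKM against 19.6, 18.6 and 16.9 FPKM, with overlapping groups and a log2 fold change of 0.096 (SE 0.084, adjusted p = 0.524).

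Groups without overlap were found for 3 of the 9 genes tested, Tfb2m, Tefm and Polg, and for 31.7% of all genes tested (16.2% higher and 15.5% lower). The 95% interval of the fold crossed 1 for 8 of the 9 genes and, over all 9, reached from 0.730 to 1.26, so that larger changes lay outside the intervals for FPKM + 1.

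Of the pair that stabilises mitochondrial mRNA, Lrpprc (chromosome 17, 84705247 to 84790789) was at 17.0, 20.5 and 20.5 FPKM in si-NC against 16.3, 19.6 and 19.1 FPKM in si-circRtn4. Both groups held 1 low library, replicate 1, and the log2 fold change of -0.069 (SE 0.11, adjusted p = 0.737) turned to 0.0097 without si-circRtn4 replicate 1 and to 0.019 when libraries were scaled to equal FPKM sums, which moved the median of all genes to 0.082. Lrpprc was lower in the si-circRtn4 library of all 3 same-numbered pairs. Slirp (chromosome 12, 87443896 to 87452206, plus strand) was listed at 0.875, 0.782 and 0.829 FPKM in si-NC against 0.317, 0.911 and 0.443 FPKM in si-circRtn4. Only 14 to 44 reads per library stood behind these values, and with a mean below 1 FPKM it was not among the genes tested. With all 28442 detected genes tested its log2 fold change was -0.25 (SE 0.16, adjusted p = 0.549 in limma), where 1.66% of those genes were called (0.738% higher and 0.918% lower). Of the exonic bases of Slirp, 97.8% are also exonic bases of a gene on the opposite strand, 93.9% in Snw1 and 3.93% in Alkbh1. For the other 9 factors this share was at most 12.6% (Twnk with Mrpl43), and it was 8.57% for Polg with Fanci. Whether the counting used strand is not given in the sources used here, so the low value of Slirp cannot be read as a low level of its mRNA.

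**Figure D2:**
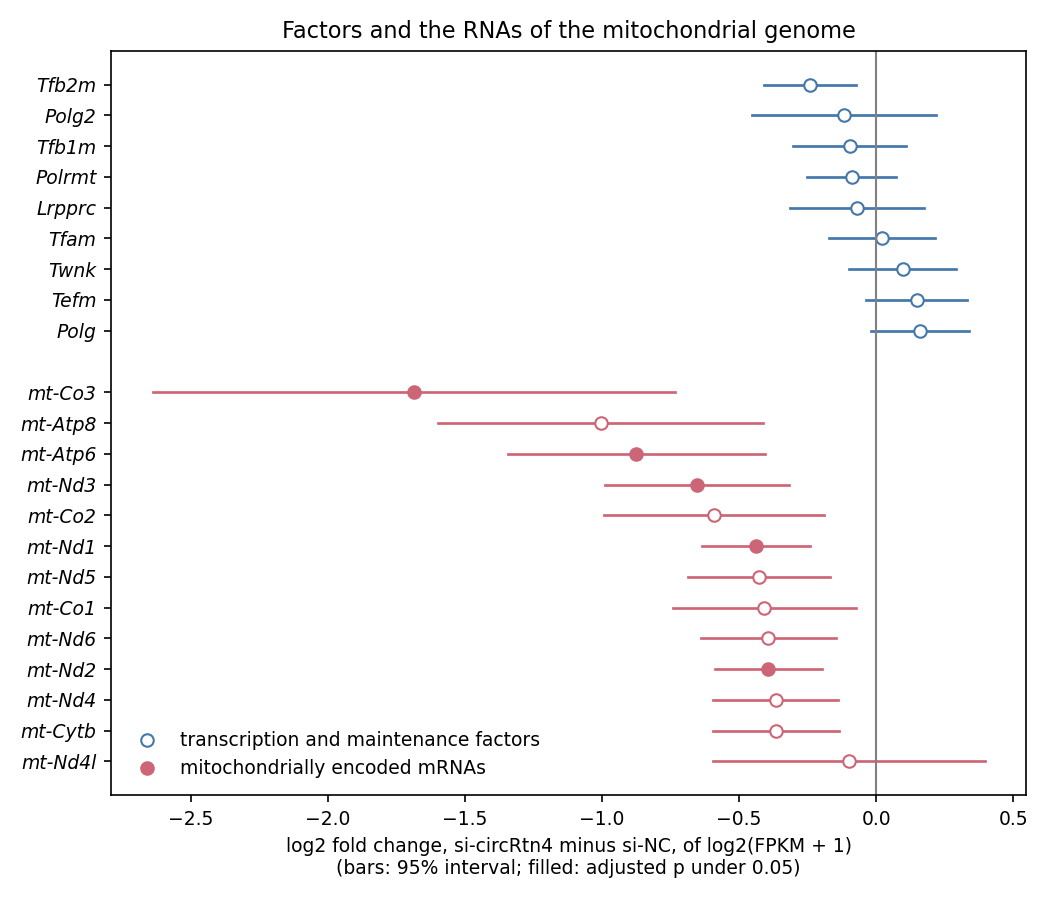
Log2 fold changes of log2(FPKM + 1), si-circRtn4 minus si-NC, for the 9 factors tested (upper block) and the 13 mitochondrially encoded mRNAs (lower block). Points are estimates from limma, bars are 95% intervals, and filled points have an adjusted p under 0.05. The factors lie between -0.24 and 0.16 with no filled point, whereas all 13 mitochondrial mRNAs lie below 0 and 5 of them are filled.

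These factors make and stabilise the RNAs of the mitochondrial genome. Of its 13 mRNAs 5 fell and 0 rose at an adjusted p under 0.05, where 4.82% of all genes tested were lower, and their median log2 fold change was -0.43. The most abundant of those called was mt-Nd1, a subunit gene of complex I, at 1825, 1951 and 1863 FPKM in si-NC against 1429, 1367 and 1361 FPKM in si-circRtn4 (log2 fold change -0.44, SE 0.085, adjusted p = 0.0211 in limma). It was called without si-circRtn4 replicate 1 or 3 but not without any of the other 4 libraries (adjusted p of 0.0417 to 0.0918 in limma). No window of 50 bases of mt-Nd1 lies in another annotated gene. The largest fall among those called was that of mt-Co3 with a log2 fold change of -1.69 (SE 0.41, adjusted p = 0.0443), followed by mt-Atp6 at -0.87 and mt-Nd3 at -0.65. When 1 library was left out mt-Co3 was called only without si-NC replicate 2 or 3, mt-Atp6 without si-NC replicate 1 or the third si-circRtn4 library, and mt-Nd3 without the first si-circRtn4 library. In limma mt-Co3 was not called without a variance trend (adjusted p = 0.0561), nor mt-Nd3 in limma-voom (0.0745) or after scaling to equal FPKM sums (0.0577). These 3 share 99.9%, 99.5% and 98.0% of their windows with the annotated genes Gm28437, Gm10925 and Gm28438 and were listed at no more than 159.5, 108 and 15.2 FPKM. How reads that fit both were counted is not given in the sources used here. The number called was 11 with replicate number as a block and 0 to 4 when 1 library was left out, namely 0 without si-circRtn4 replicate 2, 1 without si-NC replicate 1 or 3, 2 without si-NC replicate 2 or si-circRtn4 replicate 3, and 4 without si-circRtn4 replicate 1. It was 0 with all detected genes tested, 3 after scaling to equal FPKM sums and 9 in limma-voom, and the median log2 fold change lay between -0.43 and -0.33 in these settings and between -0.50 and -0.38 when 1 library was left out. Of all 12749 genes 615 were lower in the main fit, 1243 with the block and 217 to 419 when 1 library was left out. It was 400 after scaling to equal FPKM sums, 725 in limma-voom, and 261 of 28442 with all detected genes tested. Of the 13 mRNAs 12 had groups without overlap, all with the si-circRtn4 libraries lower, against 15.5% of all genes tested. The difference between the 2 kinds of genes was not tested, and the rRNA genes mt-Rnr1 and mt-Rnr2 were not called (adjusted p = 0.0520 and 0.0644 in limma). Both were called lower with replicate number as a block (0.0130 and 0.0163) and in limma-voom. Of the 2, 1 was called lower with quantile normalization and after scaling to equal FPKM sums without the top gene. The same number was called without si-NC replicate 1 or si-circRtn4 replicate 1, and neither in the other alternatives.

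Ratios of partner genes were taken within each library, since a ratio does not depend on how the library is scaled. Among 6 pairs, the groups stood apart for 1, Tefm to Polrmt, the elongation factor against its polymerase. Its ratio of FPKM values was 0.470, 0.537 and 0.535 in the si-NC libraries and 0.598, 0.639 and 0.612 in the si-circRtn4 libraries. The difference of the log2 ratio was 0.26 (SE 0.070) and the ratio was higher in the si-circRtn4 library of all 3 same-numbered pairs. The two-sided exact permutation test gave p = 0.1, the smallest value this design allows, and 0.4 with Benjamini-Hochberg adjustment over the 6 pairs. The other pairs overlapped between the groups. The share of such ratios over other gene pairs was not computed, and of single genes tested 31.7% had groups without overlap. Tfb2m to Tfb1m was 3.05 ± 0.213 in si-NC and 2.77 ± 0.154 in si-circRtn4 (SD, n = 3 each, exact permutation p = 0.2), and Polrmt to Tfam was 0.870 ± 0.0940 and 0.800 ± 0.0715 (exact permutation p = 0.4). For the copying enzymes, Polg2 to Polg was 0.486 ± 0.0786 and 0.384 ± 0.0921 (exact permutation p = 0.3), and Twnk to Polg was 3.13 ± 0.230 and 2.95 ± 0.318 (exact permutation p = 0.4). Each of these 4 ratios was lower in the si-circRtn4 library of all 3 same-numbered pairs. Polrmt and Polg each enter more than 1 of the 6 pairs, so ratios with a gene in common are not separate results. Slirp to Lrpprc was 0.0434 ± 0.00716 and 0.0297 ± 0.0147 (exact permutation p = 0.3), and carries the uncertainty of Slirp.

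**Figure D3:**
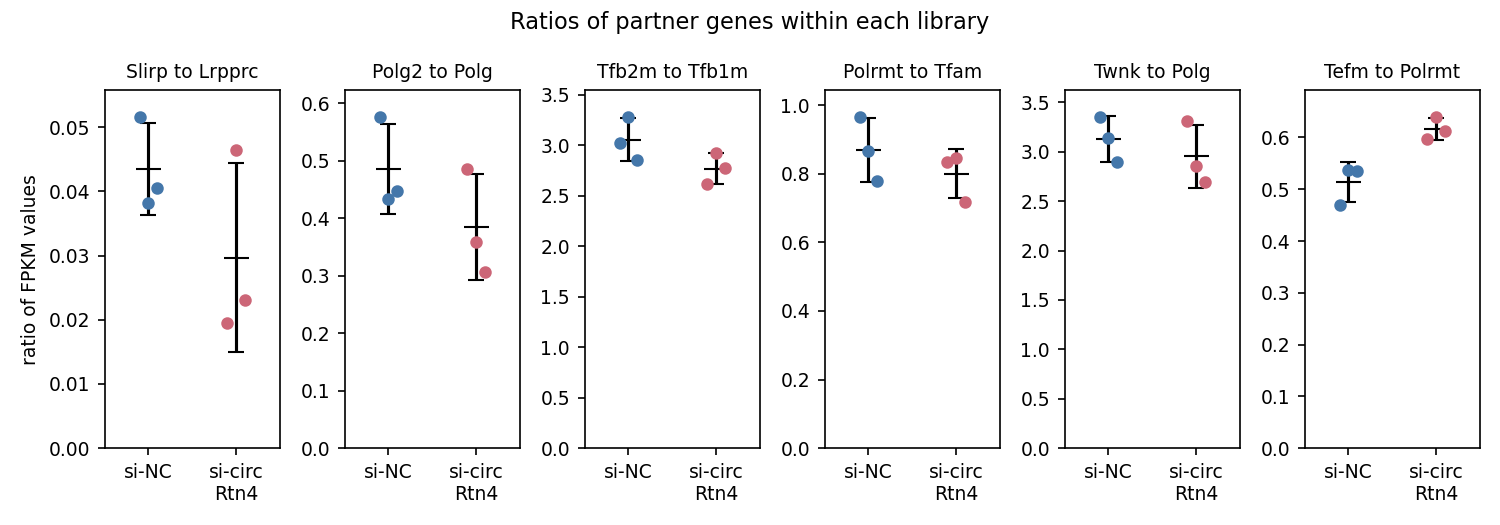
Ratios of FPKM values of 6 pairs of partner genes within each library, each on its own linear axis from 0. Points are libraries and bars are the mean ± SD of 3. The si-circRtn4 libraries lie above all si-NC libraries for Tefm to Polrmt (0.598 to 0.639 against 0.470 to 0.537), and the groups overlap for the other pairs.

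Other nuclear genes of mitochondrial DNA and RNA were read from lists written by role. Of 90 such genes tested 6 rose and 3 fell, which is 10.0% called against 9.19% of all genes tested. The median log2 fold change was 0.032. With replicate number as a block 7 rose and 9 fell, where 19% of all genes tested were called in that fit. When 1 library was left out 2 to 5 rose and 0 to 3 fell, with 2 rising when si-NC replicate 2 or either of si-circRtn4 replicates 1 and 2 was left out, and 0 falling when si-NC replicate 2 or 3 was.

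Genes that copy, repair and pack the DNA or supply its nucleotides held most of these calls. Of 30 tested, 4 rose and 2 fell, where 4.36% of all genes tested were called higher and 4.82% lower. The median log2 fold change was 0.035. Whether this list differs from those shares was not tested, and it was written with earlier results of these data known. Top1mt, the topoisomerase I of mitochondria, was at 8.66, 8.18 and 10.2 FPKM in si-NC against 19.3, 20.9 and 16.5 FPKM in si-circRtn4. It was 209% of the si-NC level, with a log2 fold change of 0.99 (SE 0.11, adjusted p = 0.00352 in limma), and it was called in all 14 alternatives. Slc25a33, a carrier of pyrimidine nucleotides, rose from 30.9 to 48.5 FPKM on average, with a log2 fold change of 0.64 (SE 0.088, adjusted p = 0.00727), and was also called in all 14. Rrm2b, a ribonucleotide reductase subunit that is a known p53 target, rose by a log2 fold change of 0.66 (adjusted p = 0.0196), and Lonp1, the matrix protease that can degrade TFAM, by 0.48 (adjusted p = 0.0255). Endog, a mitochondrial endonuclease, fell to 62.5% of the si-NC level (log2 fold change -0.53, adjusted p = 0.0197), and Slc25a36, a second nucleotide carrier, to 69.3% (log2 fold change -0.44, adjusted p = 0.0346). With all detected genes tested in limma none of the last 4 was called (adjusted p of 0.0760 to 0.107), nor was Endog in limma-voom (0.0739) or Slc25a36 after scaling to equal FPKM sums (0.0741). When 1 library was left out, each of the last 4 was called in only 2 of 6 fits. Rrm2b held without si-NC or si-circRtn4 replicate 3 (adjusted p of 0.0269 to 0.0728 over the 6 fits in limma), and Lonp1 without si-NC replicate 1 or 3 (0.0415 to 0.0901). Endog held without si-NC replicate 1 or the second si-circRtn4 library (0.0338 to 0.0773), and Slc25a36 without si-NC replicate 1 or the third si-circRtn4 library (0.0431 to 0.117).

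Of 45 genes tested that cut, modify, end or degrade mitochondrial RNA, 2 rose and 1 fell, which is 6.67% called against 9.19% of all genes tested, with a median log2 fold change of 0.039. Grsf1, an RNA-binding protein of mitochondrial RNA granules, was at 48.9, 47.5 and 51.1 FPKM in si-NC against 37.6, 37.2 and 38.0 FPKM in si-circRtn4. The groups stood wide apart, with a log2 fold change of -0.38 (SE 0.066, adjusted p = 0.0158 in limma). It was not called when either of si-NC replicates 2 and 3, or the second si-circRtn4 library, was left out (adjusted p = 0.0583 to 0.0594). Angel2, a phosphatase of RNA ends, rose by a log2 fold change of 0.35 (adjusted p = 0.0339), and Lactb2, a mitochondrial endoribonuclease, by 0.35 (adjusted p = 0.0304). Of the 6 fits that left out 1 library, Angel2 was called in 1, that without si-NC replicate 3 (adjusted p of 0.0482 to 0.108 in limma), and Lactb2 in 0 (0.0683 to 0.0906). Neither was called with all detected genes tested.

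Nuclear regulators of these genes, such as Nrf1, Gabpa and the PGC-1 coactivators, held no call. Of 18 listed, 15 were tested in limma and 0 were called, and limma-voom also called 0. At an unadjusted p under 0.05 in limma 4 were lower and 0 higher, where 12.8% of all genes tested were lower. That count was 2 lower with quantile normalization, and 0 lower and 1 higher after scaling to equal FPKM sums. Their median log2 fold change was -0.13, and -0.053 after that scaling. The highest estimate was that of Pprc1, a PGC-1-related coactivator, at 0.17 (adjusted p = 0.321), and the lowest was that of Foxo3, a forkhead factor, at -0.32 (adjusted p = 0.233). With replicate number as a block 3 of the 15 were called lower, among them Foxo3 (adjusted p = 0.0272 in limma), where 9.75% of all genes tested were lower in that fit.

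**Figure D4:**
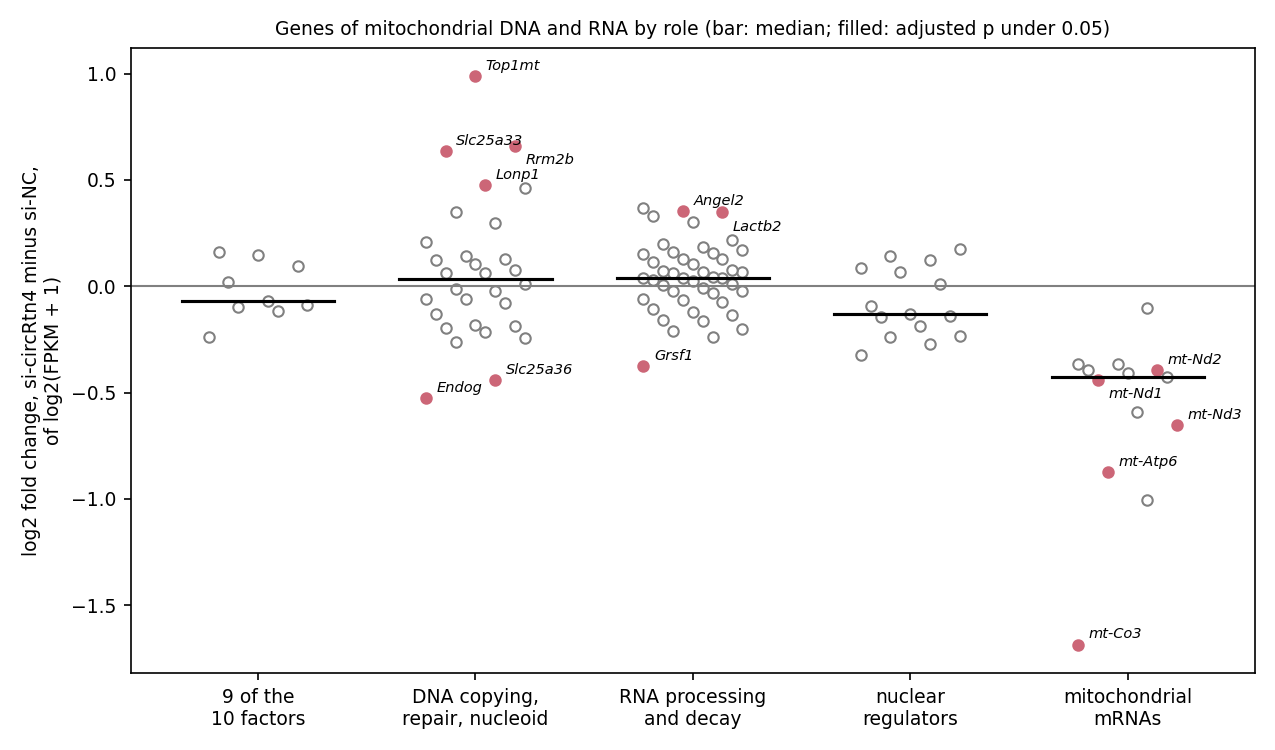
Log2 fold changes of log2(FPKM + 1), si-circRtn4 minus si-NC, for every tested gene of 5 groups by role. Points are genes, horizontal bars are group medians, and filled, named points have an adjusted p under 0.05 in limma. The 9 factors show no filled point, Top1mt is the highest at 0.99, and the mitochondrial mRNAs lie lowest, with a median of -0.43.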

How the data were processed

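The authors deposited 1 FPKM value per gene and library, with gene length and coordinates. The submitters' processing notes name Bowtie 0.12.2 and the builds mm8 and mm9 with no role, but 98.1% of the 54532 genes listed have the start and end of GENCODE M21, which places them on GRCm38. The counting tool and the use of strand are not given in the sources used here. A further 6 columns of values, which match none of these 6 libraries by name, were not used here. FPKM times gene length gave whole multiples of 1 step (within 0.01 reads) for 100% of values, and reads were recovered from it.

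Log2(FPKM + 1) was compared with limma 3.58.1 (R 4.3.3; lmFit, eBayes with trend) for genes averaging 1 FPKM or more, with Benjamini-Hochberg adjustment over all 12749. The scale understates the change of low genes. Depth was 13541198 to 15122063 reads, and the FPKM of a gene with few reads, such as Slirp, is imprecise. Ratios and single genes were compared by exact permutation (scipy 1.17.1). The fit was tested on simulated data. Windows of 50 bases were matched across GENCODE M21 transcripts on both strands.

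The factors and the lists were chosen with earlier results of these data known. Named are all factors, and of each list and of the mitochondrial mRNAs up to 4 called genes in each direction, by size of change, or the 1 largest estimate where none was called. Prorp was matched through its RefSeq synonym. Libraries with the same replicate number deviated together from their group means (r = 0.331, 0.190 and 0.226, and at most 0.0091 for other pairs). The deviations of each gene add to 0 within a group, so positive values for same-numbered pairs force negative values among the others. The numbers were treated as pairs in the fit with a block, and no source says what they mark. Alternatives were another pseudocount (0.1), all detected genes, equal FPKM sums with and without the top gene, quantile normalization, limma-voom, no variance trend, the block and leaving out each library.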

Additional observations from a re-analysis of the deposited data

How the results depend on the processing

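Of the 9 factors tested, 0 were called higher in any of the 14 alternatives, and 0 were called lower except under the replicate block, where 1 was lower (Tfb2m). Slirp was tested only with all detected genes and was not called. The all-gene counts moved by over 1.5 times under several settings. From 556 higher and 615 lower genes they went to 210 and 261 with all detected genes tested, to 977 and 400 after scaling to equal FPKM sums, to 902 higher in limma-voom, and to 1185 and 1243 with the replicate block. Rescaling thus raised the higher share of calls from 47.5% to 71.0%. It raised the median of all genes to 0.082, and a 57-base gene, Gm23935, held 13.5% to 20.7% of the FPKM sum. When those sums left out Gm23935, the top gene, 593 genes were higher and 541 lower. The higher share of calls was then 52.3% and the median of all genes 0.021. Leaving out 1 library gave 163 to 407 higher and 217 to 419 lower genes. Of the 90 other nuclear genes, 6 higher and 3 lower became 2 and 1 with all detected genes (93 of the lists) tested, and 9 were lower with the replicate block. Leaving out 1 library gave 2 to 5 higher and 0 to 3 lower. The log2 fold change of Lrpprc turned from -0.069 to 0.019 after scaling to equal FPKM sums, and was -0.048 when those sums left out Gm23935. Without 1 library it lay between -0.15 and 0.0097, and that of Tfam between -0.031 and 0.060. The cause of these moves was not tested. Testing all detected genes adjusts over 28442 genes, and it also changed the standard errors, in both directions. At an unchanged log2 fold change, that of mt-Nd1 went from 0.085 to 0.276 and that of Grsf1 from 0.066 to 0.045. Of the 13 mitochondrial mRNAs, 12 were lower at an unadjusted p under 0.05 in the main fit and 5 with all detected genes. The part of each change in the lost calls was not tested. The block changed no other call of a factor, and of the other genes named it changed those of Foxo3, mt-Rnr1 and mt-Rnr2. All 6 ratios kept their direction with 1 FPKM added to both genes and without each library in turn. The mean over same-numbered pairs was also taken, but it equals the difference of means and could not change direction. No other alternatives were run for the ratios. Slirp to Lrpprc was higher in the si-circRtn4 library of 1 of the 3 same-numbered pairs. Depth limits Slirp, with 14 to 44 reads per library, and Polg2, with 122 to 207.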
